A study of Mus musculus with 26 samples.

Results

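The genes described here are those of the mouse major histocompatibility complex (MHC) and of antigen presentation, taken from the raw count table by symbol: every symbol that starts with H2-, and B2m, Tap1, Tap2, Tapbp, Psmb8, Psmb9, Psmb10, Cd74, Ciita and Nlrc5. The rule found 44 of 21119 gene symbols. Of these, 32 belong to class I presentation, 11 to class II presentation, and 1, H2-Ke6, is a steroid dehydrogenase named after the region. After a filter on low counts, 33 of the 44 could be tested: 23 of class I, 9 of class II and H2-Ke6. The 11 that could not were H2-Q1, H2-Q2, H2-T3, H2-M5, H2-M10.1, H2-M10.2, H2-M10.3, H2-M10.5 and H2-M11 of class I, and H2-DMb2 and H2-Oa of class II.

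RNA was sequenced from aortae of C57BL6/J mice that had been wounded with mechanical pressure. The injured 48 h group consisted of 9 lumen flushes from wounded abdominal segments, collected 48 h after the wound, and the injured 3 h group of 5 such flushes from other mice, collected at 3 h. The uninjured group held 9 flushes of thoracic segments, from the mice that gave the injured 48 h group, so these controls also came from wounded animals at 48 h. The flushed wall group held 3 samples of the homogenized abdominal aorta left after the flush at 48 h, from 3 of those 9 mice; their segment is not labelled beyond that tissue name. The flush, made with a lysis buffer, is meant to take the endothelium. Injury and aortic segment differ together in every injured against uninjured comparison, and their parts cannot be told apart. Against the uninjured group the 3 h group differs in mouse and time as well. The labels divide the mice into 3 experimental batches, and each batch held libraries of all 4 groups.

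MHC class I molecules stand on nearly every nucleated cell and show it peptides from the cell's own proteins, cut by the proteasome, carried into the endoplasmic reticulum by the TAP transporter and loaded there onto a heavy chain with its light chain, beta-2 microglobulin. MHC class II molecules show peptides from material taken up from outside and are made mainly by dendritic cells, macrophages and B cells. Their chains are held by the invariant chain, a product of Cd74, until a peptide is loaded. Endothelium carries class I at rest, and interferon gamma raises class I and can induce class II through the transactivator CIITA.

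Libraries of the injured 48 h group held 3904901 to 11982411 counts, those of the injured 3 h group 2657169 to 4346847, the uninjured ones 1755773 to 5294304 and the wall 13853003 to 15560008. Levels below are CPM, counts scaled to the library's total with the TMM correction for library composition. Tests are edgeR's quasi-likelihood test over 13884 genes, two-sided, with Benjamini-Hochberg adjustment, and a gene is called higher or lower at an adjusted p under 0.05. Endothelial markers were present in all flushes. At 48 h the sum of 10 endothelial markers ran from 5585 to 9205 CPM in injured flushes, at 3 h from 10964 to 12247 CPM, in uninjured flushes from 9425 to 11613 CPM and in the wall from 1844 to 2725 CPM. The sum of 8 smooth muscle markers ran from 958 to 1710 CPM, 819 to 1198 CPM, 161 to 1291 CPM and 23759 to 24648 CPM in the same 4 groups.

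All 44 genes matched the GENCODE M21 annotation of GRCm38, and most lie in the H2 region of chromosome 17. Promoters of 37 of them were in a RefSeq table of GRCm38.p6 that holds 250 bases before and 50 bases after each start. Of the class II members, H2-Ab1, Cd74 and Ciita were not in it. Windows of 150 bases are shown for the 3 class II members whose promoter held the X2 core named below. They are also shown for 4 chains picked from the class I chains called between flush and wall. Capitals mark 4 motif cores on either strand: CCAAT (the Y box), TGATGA (the X2 box, where CREB family factors bind), TTTCACTT (an interferon response element) and GGGATTCCC (a kappaB site). The motifs were chosen after the promoters had been read, and the ones in capitals do not overlap each other. The class II windows are H2-Aa at chr17:34287854-34288003 on the minus strand, H2-Eb1 at chr17:34305687-34305836 and H2-DMb1 at chr17:34153011-34153160, both on the plus strand. The class I windows are H2-K1 at chr17:34000378-34000527 on the minus strand, and H2-D1 at chr17:35262914-35263063, H2-Q4 at chr17:35379437-35379586 and H2-Q6 at chr17:35424670-35424819 on the plus strand. They read 5′ to 3′ on the gene's strand:
H2-Aa: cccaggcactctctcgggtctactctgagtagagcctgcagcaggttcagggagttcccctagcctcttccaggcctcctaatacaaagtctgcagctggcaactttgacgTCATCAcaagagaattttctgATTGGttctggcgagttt
H2-Eb1: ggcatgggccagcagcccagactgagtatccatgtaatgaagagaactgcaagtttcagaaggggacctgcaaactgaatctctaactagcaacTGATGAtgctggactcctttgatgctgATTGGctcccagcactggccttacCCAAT
H2-DMb1: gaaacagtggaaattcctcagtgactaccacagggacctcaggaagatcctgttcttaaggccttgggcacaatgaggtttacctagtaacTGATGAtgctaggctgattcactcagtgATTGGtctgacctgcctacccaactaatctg
H2-K1: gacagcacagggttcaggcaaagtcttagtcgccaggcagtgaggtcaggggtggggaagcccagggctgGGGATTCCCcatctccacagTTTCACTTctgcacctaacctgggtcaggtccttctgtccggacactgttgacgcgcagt
H2-D1: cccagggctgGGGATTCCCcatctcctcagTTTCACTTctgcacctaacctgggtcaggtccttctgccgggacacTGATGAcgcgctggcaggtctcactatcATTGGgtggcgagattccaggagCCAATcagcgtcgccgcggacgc
H2-Q4: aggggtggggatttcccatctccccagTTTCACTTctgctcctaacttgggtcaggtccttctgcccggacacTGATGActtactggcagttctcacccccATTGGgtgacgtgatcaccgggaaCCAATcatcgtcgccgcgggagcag
H2-Q6: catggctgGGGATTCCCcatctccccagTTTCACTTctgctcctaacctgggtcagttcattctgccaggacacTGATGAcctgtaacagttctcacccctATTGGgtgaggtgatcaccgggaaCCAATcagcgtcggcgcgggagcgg
Counting a gene when any of its listed starts held the letters, CCAAT stood in 23 of the 28 class I members in the table and in 8 of 8 class II members, against 41.1% of all 27025 genes. For H2-DMa, which has 2 listed starts, the match lay in the window of 1 of them. TGATGA stood in 11 of 28 class I and 3 of 8 class II promoters, against 14.2% of all genes. The 2 longer cores were found in class I members and in no class II member of the table. TTTCACTT stood in 9 of 28, against 1.91% of all genes, and GGGATTCCC in 4 of 28, against 0.414%. Of the called class I chains not shown, H2-Q7 held both cores and H2-M3 held TTTCACTT, while H2-T23, H2-M1 and H2-M2 held neither. These matches are letters in a 300-base window and say nothing of binding.

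In the injured flush at 48 h, 6 of the 9 tested class II genes rose. They were called higher than in the uninjured flush, and 0 were called lower (edgeR; at an unadjusted p under 0.05 also 6 and 0, and 6 and 0 by DESeq2), where 24.6% of all tested genes were called higher and 18% lower. The median log2 fold change of the 9 was 2.05, against 0.18 over all genes. The 6 were Cd74, the 3 classical chains H2-Aa, H2-Ab1 and H2-Eb1, the peptide editor H2-DMa and the transactivator Ciita.

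Cd74, the invariant chain, had 252 CPM at the lowest, 562 at the median and 841 at the highest in the 9 injured 48 h flushes, against 22.5, 94.0 and 288 CPM in the 9 uninjured flushes. All 9 injured libraries lay above the uninjured mean, although the lowest of them lay below the highest uninjured library. The log2 fold change was 2.05 ± 0.42 (SE; edgeR adjusted p = 0.0004). Within experimental batches 1, 2 and 3 it was 2.10, 2.20 and 1.81, with adjusted p of 0.0703, 0.0942 and 0.147 at the smaller numbers.

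The alpha chain H2-Aa had 69.5, 156 and 260 CPM (lowest, median and highest) in the injured 48 h flushes, against 10.12, 37.1 and 80.4 CPM in the uninjured flushes, a log2 difference of 1.80 ± 0.39 (SE; edgeR adjusted p = 0.00071). Its partner, the beta chain H2-Ab1, had 80.3, 185 and 318 CPM against 6.75, 27.9 and 97.6 CPM, a log2 fold change of 2.10 ± 0.45 (adjusted p = 0.000661). The beta chain H2-Eb1 had 19.96, 42.1 and 69.2 CPM against 1.12, 7.56 and 22.6 CPM, a log2 fold change of 2.26 ± 0.43 (adjusted p = 0.000161). For each of the 3 chains every injured library lay above the uninjured mean, and the ranges overlapped at their ends. In C57BL6 mice no functional E alpha chain is made, so the H2-Eb1 product lacks its usual partner. In each experimental batch the 3 chains were higher in the injured flush: by 1.74, 1.87 and 1.79 for H2-Aa, 2.02, 2.28 and 1.98 for H2-Ab1, and 2.93, 2.00 and 2.12 for H2-Eb1, all on the log2 scale.

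**Figure D1:**
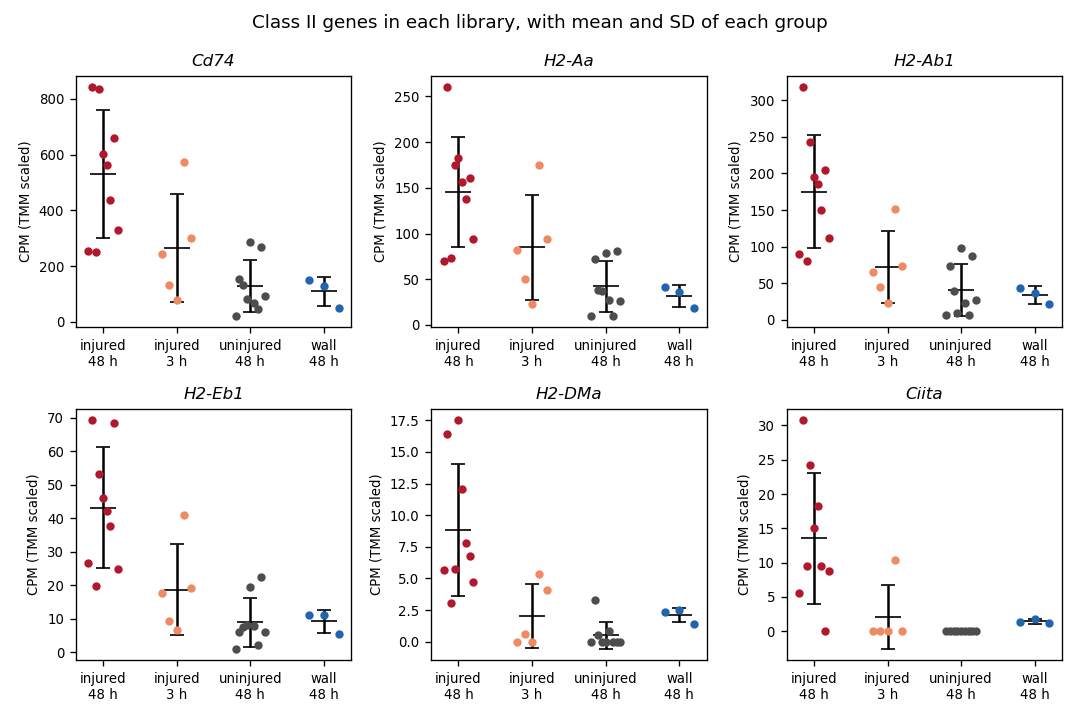
CPM of 6 class II genes in every library (points), with the mean and SD of each group (bars), in the injured 48 h, injured 3 h and uninjured flushes and the flushed wall. For Cd74 the injured 48 h flushes lie between 252 and 841 CPM, against 22.5 to 288 CPM in the uninjured flushes, and Ciita is at 0 in all 9 uninjured flushes.

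Ratios between the class II chains within a library spread most widely in the uninjured flushes. Each ratio had its highest uninjured value in the library of mouse E2A, which held 22 counts of H2-Ab1. The uninjured library of mouse E1A held 12. H2-Eb1 over H2-Ab1 had a median of 0.236 in the injured 48 h flushes, 0.269 at 3 h, 0.217 in the uninjured flushes and 0.256 in the wall. Cd74 over H2-Ab1 had medians of 3.04, 3.70, 3.33 and 3.38 in the same order. H2-Aa over H2-Ab1 had medians of 0.843, 1.15, 0.985 and 0.945. It ran from 0.721 to 0.939 in the injured 48 h flushes, from 1 to 1.27 at 3 h, without overlap between these, and from 0.801 to 4.05 in the uninjured flushes. These are ratios of CPM within a library, as a description, without a test.

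Ciita, which switches on class II genes, was at 0 counts in all 9 uninjured flushes and held 1012 counts over the 9 injured 48 h flushes. Against a floor of 3 counts over the uninjured group, Ciita was at least 120.4-fold higher in the injured flush (edgeR adjusted p = 0.000288). With the uninjured group at 0, a lower value in the injured flush was not possible. The injured 48 h values ran from 0 to 30.7 CPM with a median of 9.51 CPM, and 8 of 9 libraries held reads. The library of mouse E3B, at 0, was the exception. The gene lies at chr16:10480059-10528418 in GRCm38. With all libraries thinned to the size of the smallest, the adjusted p of Ciita was 0.000602.

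H2-DMa, the alpha chain of the editor that exchanges the invariant chain fragment for peptide, ran from 3.08 to 17.5 CPM with a median of 6.79 CPM in the injured 48 h flushes. In the uninjured flushes 6 of 9 libraries were at 0, and the highest, that of mouse E1B, was at 3.26 CPM. The log2 fold change was 4.13 ± 0.94 (adjusted p = 0.00111). Of its 50-base stretches, 8.43% also occur in the neighbouring Brd2. H2-DMb1, its beta chain, averaged 4.86 ± 2.91 CPM against 1.36 ± 2.16 CPM (SD, n = 9 each) and was not called (log2 fold change 1.89 ± 0.94, adjusted p = 0.104). With the mouse as a block it was called higher, at 3.42 (adjusted p = 0.0252), and without the uninjured library of mouse E1B it was called at 2.69 (adjusted p = 0.0307). Of the 50-base stretches in H2-DMb1 transcripts, 22.7% are shared with the second copy H2-DMb2, so reads could be lost or placed on either. H2-DMb2 itself had 49 counts over the injured 48 h flushes against 0 in the uninjured flushes, at least 5.83-fold higher with no test.

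The H2-O pair, a brake on H2-DM known from B cells, was scarce. H2-Ob averaged 6.503 ± 3.31 CPM in the injured 48 h flushes and 2.10 ± 2.55 CPM in the uninjured flushes (SD, n = 9 each) and was not called (adjusted p = 0.108). H2-Oa held 36 counts over the injured 48 h flushes and 0 over the uninjured flushes. H2-Eb2, a relative of the E beta chain, averaged 2.01 ± 2.73 CPM against 4.80 ± 4.70 CPM and was not called (log2 fold change -1.26 ± 0.94, adjusted p = 0.281).

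Markers of several cell types also differed between these flushes, where 24.6% of all tested genes were called higher and 18% lower. Of 11 tested macrophage markers, 9 were called higher in the injured 48 h flush than in the uninjured flush and 0 lower. The sum of the 12 listed markers ran from 721 to 5776 CPM in the injured 48 h flushes, against 206 to 403 CPM in the uninjured flushes, where Fcgr1 and C1qa were at 0. Of 9 tested B cell markers, 6 were called higher and 0 lower. The sum of 10 ran from 19.96 to 92.4 CPM against 6.18 to 67.3 CPM, and Cd79a, Cd79b and Blk were at 0 in the uninjured flushes. Of 6 tested dendritic cell markers, 2 were called higher and 0 lower. The sum of 9 ran from 89.5 to 138 CPM against 58.2 to 177 CPM, with Flt3, Xcr1, Ccr7 and Batf3 at 0 in the uninjured flushes. Ptprc, the leukocyte antigen CD45, was called higher, with 109, 219 and 259 CPM (lowest, median and highest) against 44.5, 89.7 and 148 CPM. Of 10 endothelial markers, 2 were called higher and 7 lower. T cell and NK cell markers were called higher in 1 of 10, smooth muscle markers in 5 of 8 and fibroblast markers in 6 of 8, with 0, 0 and 1 lower. In bulk RNA, a change in the number of cells of a type and a change in RNA per cell cannot be told apart. The part of these cells in the class II result was not tested.

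Across the 9 injured 48 h libraries, Cd74 and the macrophage marker sum had Pearson r = 0.722 (exact permutation p = 0.0299, adjusted over 6 relations 0.179) and Spearman rho = 0.75 (exact permutation p = 0.0255, adjusted 0.153). Without the 2 libraries farthest from the median of the sum, r was 0.591. None of the 6 relations of Cd74 with macrophage, dendritic cell or B cell sums, computed within the injured 48 h and within the uninjured flushes, passed the adjustment.

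Of 23 tested class I genes, 0 were called higher and 6 lower in the injured 48 h flush than in the uninjured flush, where 24.6% of all tested genes were called higher and 18% lower (edgeR; at an unadjusted p under 0.05, 1 and 7, and by DESeq2 0 and 7). Their median log2 fold change was -0.16, against 0.18 over all genes. The 6 were the classical heavy chain H2-K1 and the nonclassical H2-Q4, H2-M2, H2-M3, H2-M10.4 and H2-M10.6. With libraries thinned to the smallest, 3 members were called lower, and without the uninjured library of mouse E1B also 3. Of 10 endothelial markers, 7 were called lower and 2 higher, as given above, and their part in the class I result was not tested.

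H2-K1, a classical heavy chain at chr17:33996017-34000347, had 632, 761.8 and 1143 CPM (lowest, median and highest) in the injured 48 h flushes, against 849, 1025 and 1790 CPM in the uninjured flushes. Of the 9 injured libraries, 8 lay below the uninjured mean, and the ranges overlapped. It fell by 0.41 on the log2 scale (SE 0.13, edgeR adjusted p = 0.0112). The highest uninjured value was that of mouse E1B. Leaving out single libraries kept the call in 18 of 18 cases, with log2 fold changes from -0.48 to -0.28. Within batches 1, 2 and 3 the log2 fold change was -0.44, -0.40 and -0.39, with adjusted p of 0.104, 0.219 and 0.202. H2-D1, the other classical heavy chain, had 768, 930 and 1207 CPM against 778, 980 and 1349 CPM, a log2 fold change of -0.01 ± 0.11 (adjusted p = 0.924).

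The ratio of H2-D1 to H2-K1 within a library ran from 1.04 to 1.33 in the injured 48 h flushes and from 0.754 to 1.04 in the uninjured flushes. Reads of these chains are uncertain, because they share stretches: 9.63% of the distinct 50-base stretches of H2-K1 transcripts and 12.8% of those of H2-D1 also occur in other genes' transcripts, mostly in other class I genes.

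B2m, the light chain, had 2669, 3292 and 4431 CPM in the injured 48 h flushes, against 1817, 2682 and 5225 CPM in the uninjured flushes, and was not called (log2 fold change 0.20 ± 0.15, adjusted p = 0.285). The uninjured library of mouse E1B held the highest value of that group. Without it the log2 fold change was 0.37 (adjusted p = 0.0204). No 50-base stretch of B2m is shared with another gene.

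The genes that make and load class I peptides were not called in this comparison. Tapbp, the tapasin of the loading complex, averaged 140 ± 21.3 CPM in the injured 48 h flushes and 153 ± 16.7 CPM in the uninjured flushes (SD, n = 9 each; log2 fold change -0.13 ± 0.09, adjusted p = 0.241). Of the 50-base stretches of Tapbp, 23.2% also occur in other genes. The inducible proteasome subunit Psmb8 averaged 33.7 ± 6.79 CPM against 26.7 ± 4.73 CPM (0.34 ± 0.14, adjusted p = 0.052). Psmb9 averaged 33.0 ± 8.27 CPM against 29.5 ± 8.84 CPM (adjusted p = 0.532), and Psmb10 averaged 15.59 ± 4.78 CPM against 18.0 ± 4.85 CPM (adjusted p = 0.495).

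The TAP subunit Tap1 averaged 27.3 ± 11.8 CPM in the injured 48 h flushes and 16.9 ± 11.6 CPM in the uninjured flushes (log2 fold change 0.69 ± 0.48, adjusted p = 0.25). With the mouse as a block it was called higher, at 0.87 (adjusted p = 0.0462). Tap1 and Psmb9 overlap by 212 bases on opposite strands, and since a strand setting is not stated, reads of that stretch cannot be told apart. The other TAP subunit, Tap2, averaged 9.65 ± 4.99 CPM against 8.76 ± 5.27 CPM (adjusted p = 0.846). Nlrc5, the transactivator of class I genes, averaged 17.1 ± 9.03 CPM against 9.46 ± 12.7 CPM, with 4 of 9 uninjured libraries at 0 (log2 fold change 0.85 ± 0.69, adjusted p = 0.32).

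Of the nonclassical class I chains, H2-Q4 had 10.8, 37.3 and 50.3 CPM in the injured 48 h flushes, against 39.7, 51.3 and 76.0 CPM in the uninjured flushes. All 9 injured libraries lay below the uninjured mean, and the ranges overlapped. It fell by 0.56 on the log2 scale (SE 0.20, adjusted p = 0.0298). The call was lost without the injured library of mouse E3B (adjusted p = 0.0547) or the uninjured library of mouse E1B (0.0683) or E1C (0.0548). H2-Q4 shares 36.4% of its 50-base stretches with other genes.

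H2-M3, which presents formylated peptides, had 17.1, 21.1 and 24.9 CPM against 16.9, 30.2 and 38.6 CPM, and fell by 0.44 (SE 0.15, adjusted p = 0.0186). With the mouse as a block the adjusted p was 0.0908 at a log2 fold change of -0.42. The Qa-2 genes H2-Q6 and H2-Q7 averaged 89.6 ± 30.9 CPM and 31.3 ± 11.5 CPM in the injured 48 h flushes and 113 ± 42.8 CPM and 28.1 ± 11.7 CPM in the uninjured flushes, with adjusted p of 0.263 and 0.635. Of H2-Q6 stretches, 35% also occur in other genes.

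H2-M2, of the distal H2-M cluster, had 0, 9.23 and 38.3 CPM in the injured 48 h flushes, against 15.8, 82.8 and 120 CPM in the uninjured flushes. It fell by 2.34 on the log2 scale (SE 0.56, adjusted p = 0.00169), and with libraries thinned to the smallest by 1.90 (adjusted p = 0.00472). H2-M10.6 was at 0 in all 9 injured 48 h flushes and held 30 counts over 5 of 9 uninjured flushes, at least 28.01-fold lower (adjusted p = 0.00202). At 0 in the injured flushes, it could not be called higher there. H2-M10.4 held 14 counts over the injured 48 h flushes, in 2 libraries, and 42 over the uninjured flushes, in 6 libraries (adjusted p = 0.0389). Leaving out single libraries kept the call of H2-M10.4 in 9 of 18 cases, and without the uninjured library of mouse E1B its log2 fold change was -2.09 (adjusted p = 0.177). After thinning, H2-M10.4 and H2-M10.6 were too low to test, and in the fit with the mouse as a block H2-M10.4 was. H2-M10 genes are known mainly from the vomeronasal organ. H2-M1 averaged 1.47 ± 1.38 CPM against 5.37 ± 4.52 CPM and missed the threshold (log2 fold change -1.86 ± 0.79, adjusted p = 0.0615).

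**Figure D2:**
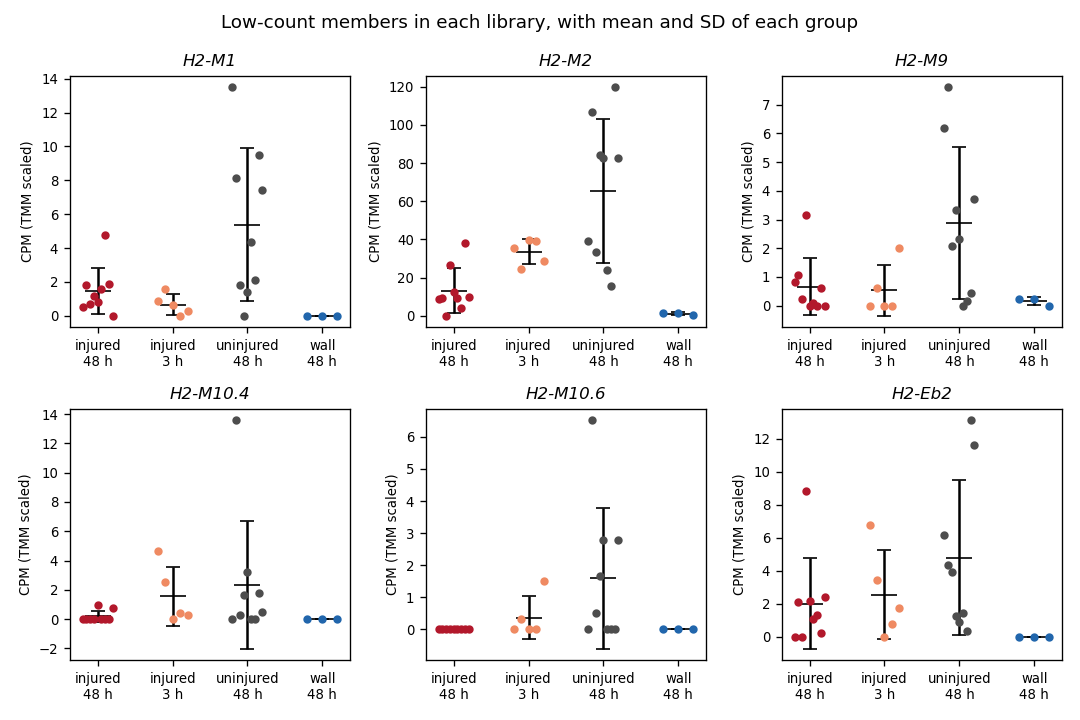
CPM of 6 low-count members in every library (points), with the mean and SD of each group (bars). H2-M2 lies between 0 and 38.3 CPM in the injured 48 h flushes and between 15.8 and 120 CPM in the uninjured flushes, and H2-M10.6 is at 0 in all injured 48 h and all wall libraries.

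At 3 h, B2m and H2-D1 of class I and H2-Ob and Ciita of class II were called higher than in the uninjured flush, Ciita on reads of 1 library. The injured 3 h flush is set against the same uninjured libraries as the injured 48 h flush. Of 23 class I members, 2 were called higher and 1 lower, where 16.1% of all tested genes were called higher and 11.1% lower. Both counts lay below those shares. At an unadjusted p under 0.05 these counts were 8 and 1, and by DESeq2 2 and 1. Their median log2 fold change was 0.34, against 0.00 over all genes. Of 9 class II members, 2 were called higher and 0 lower (edgeR; at an unadjusted p under 0.05, 5 and 0, and by DESeq2 2 and 0), with a median of 1.06. Without the uninjured library of mouse E1B, 10 members of both classes were called higher.

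B2m had 4539, 5167, 4718, 5995 and 5216 CPM in the 5 injured 3 h flushes, against 1817, 2682 and 5225 CPM (lowest, median and highest) in the uninjured flushes. All 5 lay above the uninjured mean, and the highest uninjured library lay among them. The log2 fold change was 0.84 ± 0.18 (edgeR adjusted p = 0.000798). Within batches 1, 2 and 3 it was 0.32, 1.22 and 1.11, with adjusted p of 0.492, 0.0049 and 0.0259.

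H2-D1 had 1212, 1547, 1440, 1457 and 1544 CPM at 3 h, against 778, 980 and 1349 CPM in the uninjured flushes. All 5 lay above the uninjured mean. The log2 fold change was 0.56 ± 0.12 (adjusted p = 0.0012), and 0.26, 0.64 and 0.86 within batches 1, 2 and 3. H2-K1 had 1109, 1549, 1306, 1475 and 1339 CPM against 849, 1025 and 1790 CPM and was not called (0.34 ± 0.15, adjusted p = 0.0871). Without the uninjured library of mouse E1B, the highest of its group, it was called at 0.47 (adjusted p = 0.00376).

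Loading genes were not called at 3 h. Psmb8 had 28.8, 43.1, 37.2, 36.0 and 33.9 CPM, all above the uninjured mean of 26.7 CPM (log2 fold change 0.42 ± 0.16, adjusted p = 0.0529). Nlrc5 had 16.1, 26.9, 29.1, 26.8 and 24.5 CPM against a mean of 9.46 CPM (1.37 ± 0.80, adjusted p = 0.21). Tapbp had 148, 183, 190, 207 and 175 CPM (adjusted p = 0.0947), and Tap1 had 0, 33.1, 21.9, 39.8 and 24.5 CPM (adjusted p = 0.567). Tap2, Psmb9 and Psmb10 averaged 9.78 ± 1.15, 27.4 ± 8.46 and 17.02 ± 5.30 CPM at 3 h (SD, n = 5), with adjusted p of 0.903, 0.793 and 0.895.

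H2-M1 was the class I member called lower at 3 h, with 10 counts over 5 libraries against 119 over 9 uninjured libraries (log2 fold change -2.98 ± 1.08, adjusted p = 0.0428). Leaving out single libraries kept that call in 6 of 14 cases.

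Of the class II members, H2-Ob had 17.8, 7.50, 15.9, 44.4 and 13.2 CPM at 3 h, against a highest value of 5.97 CPM and 5 of 9 libraries at 0 in the uninjured flushes. The groups did not overlap. The log2 fold change was 3.25 ± 0.93 (adjusted p = 0.011), and 1.88 and 3.39 within batches 1 and 2. In batch 3 all uninjured libraries were at 0. Of 9 tested B cell markers, 7 were called higher and 0 lower. The sum of 10 ran from 37.8 to 353 CPM in the injured 3 h flushes against 6.18 to 67.3 CPM in the uninjured flushes. Their part in the result was not tested.

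Ciita was called higher at 3 h on 1 library: that of mouse C2C held 27 counts (10.34 CPM), and the other 4 were at 0, as were all 9 uninjured flushes (adjusted p = 0.0118, at least 15.7-fold over the group). Without that library both groups were at 0. With the uninjured flushes at 0, a lower value at 3 h was not possible. The same library held the highest values of Cd74, at 574 CPM, against 78.8 to 302 CPM in the other 4, and of H2-Aa, H2-Ab1 and H2-Eb1, at 175, 152 and 41.0 CPM.

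Cd74 had 244, 133, 78.8, 574 and 302 CPM in the 5 injured 3 h flushes, against 22.5, 94.0 and 288 CPM in the uninjured flushes (log2 fold change 1.05 ± 0.47, adjusted p = 0.0975). H2-Aa had 82.1, 49.99, 23.1, 175 and 93.9 CPM in the same libraries. The log2 fold changes of H2-Aa, H2-Ab1 and H2-Eb1 were 1.02 ± 0.44, 0.82 ± 0.51 and 1.06 ± 0.48 (adjusted p = 0.0896, 0.251 and 0.104). The 4 genes lay above the uninjured mean in 4 of 5 libraries, and none passed the threshold. H2-DMa had 0, 0.625, 0, 5.36 and 4.05 CPM (2.01 ± 1.01, adjusted p = 0.144), and without the uninjured library of mouse E1B it was called at 3.14 (adjusted p = 0.0192).

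Other leukocyte markers rose at 3 h too. Of 8 neutrophil markers, 7 were called higher and 0 lower. Their sum ran from 110 to 4863 CPM in the injured 3 h flushes, against 34.9 to 188 CPM in the uninjured flushes. Of 11 macrophage markers 6 were called higher and 0 lower, with sums of 492 to 1283 CPM against 206 to 403 CPM. Their part in the values above was not tested.

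**Figure D3:**
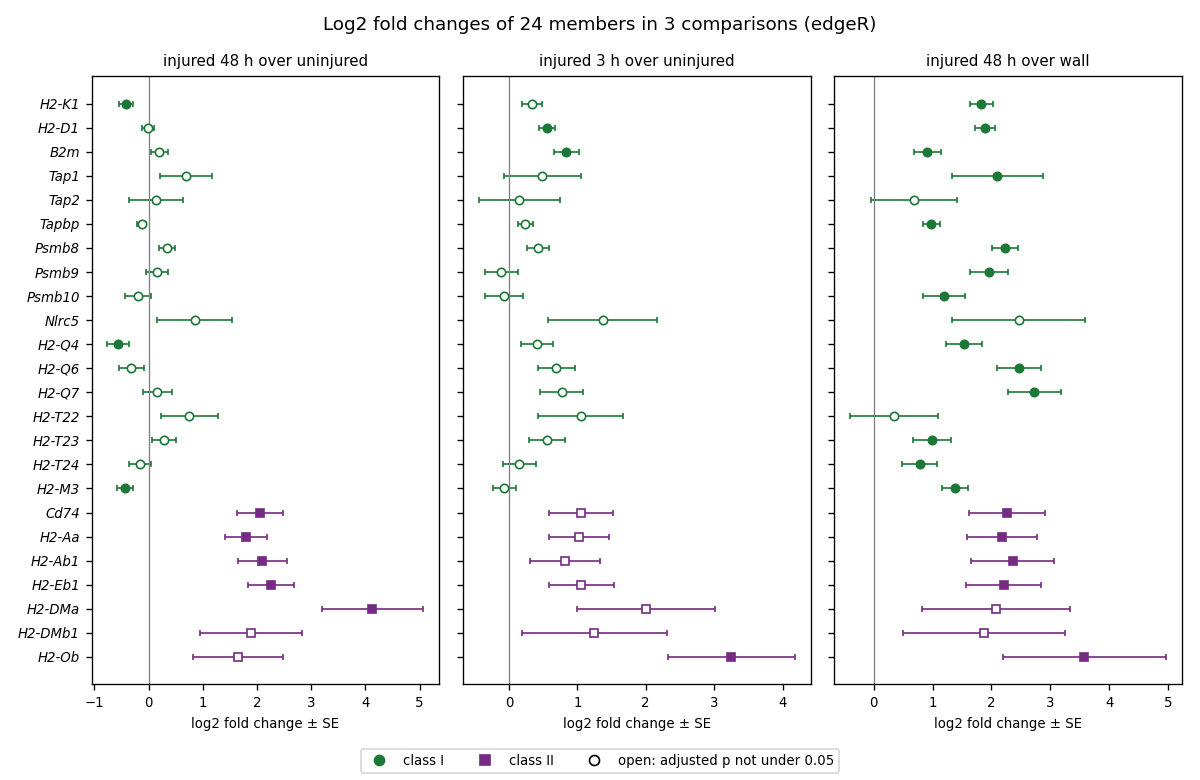
Log2 fold changes (± SE) of 24 members in the injured 48 h over the uninjured flush, the injured 3 h over the uninjured flush, and the injured 48 h flush over the wall, with filled symbols at an adjusted p under 0.05. At 48 h over the uninjured flush the class II genes shown lie right of 0 (Cd74 at 2.05) while H2-K1 lies at -0.41. The tested class II gene H2-Eb2, not shown, had -1.26 there and was not called. Against the wall H2-K1 lies at 1.83.

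Between 48 h and 3 h in the injured segment, several class I genes were lower at the later time. Of 23 tested, 0 were called higher and 7 lower (edgeR; at an unadjusted p under 0.05, 0 and 10, and by DESeq2 0 and 6), where 9.7% of all tested genes were called higher and 8.59% lower. The median was -0.37, against 0.09 over all genes. The 7 were H2-K1, H2-D1, B2m, Tapbp, H2-Q4, H2-Q6 and H2-M10.6. The times came from different mice, and both times were also set against the uninjured flush above. Endothelial markers were called higher in 1 and lower in 5 of 10. Neutrophil markers were called higher in 0 and lower in 6 of 8, and macrophage markers in 7 and 1 of 11 tested. The part of these cell types was not tested.

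H2-K1 fell by 0.76 (SE 0.15, adjusted p = 0.000581), with all 9 libraries at 48 h below the 3 h mean. H2-D1 fell by 0.57 (SE 0.12, adjusted p = 0.00152) and B2m by 0.64 (SE 0.18, adjusted p = 0.0125), and for both the groups did not overlap. Within batches 1, 2 and 3 the log2 fold change was -0.48, -0.96 and -0.86 for H2-K1, -0.33, -0.71 and -0.76 for H2-D1 and -0.46, -0.72 and -0.75 for B2m.

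H2-Q6 averaged 89.6 ± 30.9 CPM at 48 h (SD, n = 9) and 180 ± 29.7 CPM at 3 h (SD, n = 5), without overlap, and fell by 1.00 (SE 0.26, adjusted p = 0.00856). H2-Q4 averaged 36.2 ± 11.4 CPM at 48 h and 71.0 ± 18.8 CPM at 3 h, and fell by 0.96 (SE 0.23, adjusted p = 0.00436). Tapbp averaged 140 ± 21.3 CPM at 48 h and 181 ± 22.02 CPM at 3 h (-0.37 ± 0.11, adjusted p = 0.0144), a call lost without the 3 h library of mouse C2C (adjusted p = 0.0547). H2-M10.6 was at 0 at 48 h and held 7 counts in 2 of the 5 libraries at 3 h, and its call was lost without the 3 h library of mouse C3B (adjusted p = 0.237). At 0 at 48 h, it could not be called higher.

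**Figure D4:**
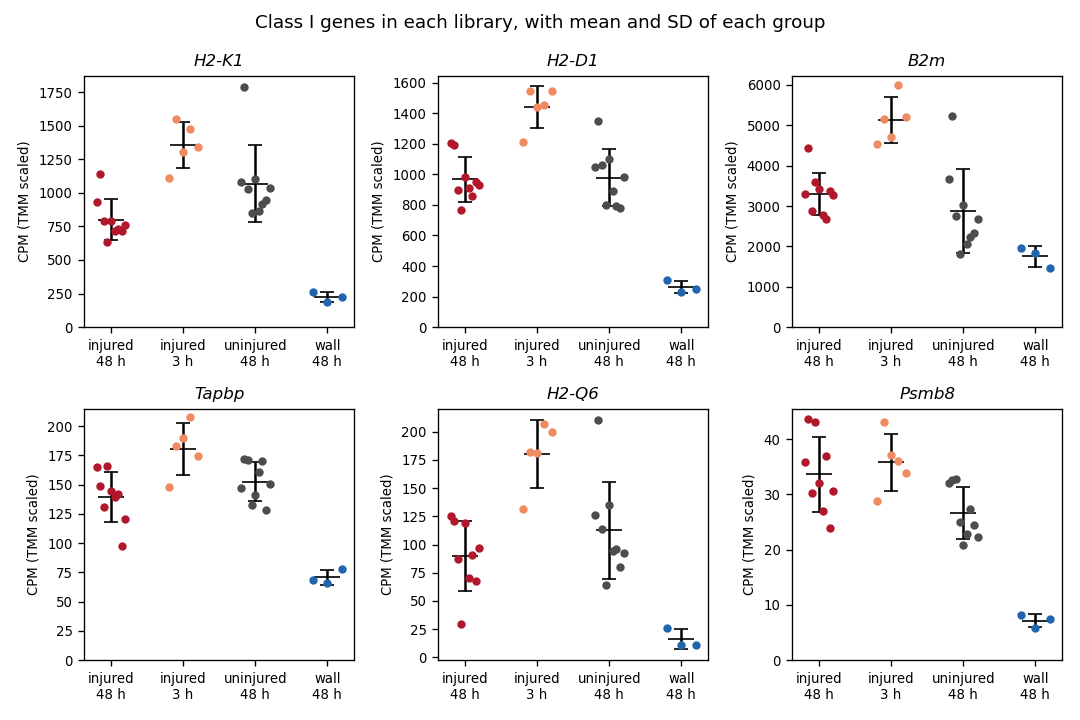
CPM of 6 class I genes in every library (points), with the mean and SD of each group (bars), in the injured 48 h, injured 3 h and uninjured flushes and the flushed wall. H2-D1 runs from 768 to 1207 CPM at 48 h and from 1212 to 1547 CPM at 3 h in the injured flushes, and from 230 to 308 CPM in the wall.

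Of the 9 class II members, 0 were called higher and 0 lower at 48 h against 3 h (edgeR; at an unadjusted p under 0.05, 2 and 0, and by DESeq2 1 and 0), with a median of 0.99. Cd74 had a log2 fold change of 0.99 ± 0.49 (adjusted p = 0.169), H2-Ab1 of 1.28 ± 0.54 (0.0977) and H2-Eb1 of 1.20 ± 0.50 (0.0954). Without the 3 h library of mouse C2C, H2-Ab1 and H2-Eb1 were called higher at 48 h, at 1.75 and 1.70 (adjusted p = 0.0416 and 0.0306), and so was Ciita, then at 0 in the 3 h group (adjusted p = 0.00232). Macrophage markers were higher at 48 h in 7 of 11 tested and lower in 1, and their part was not tested.

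Against the flushed wall of the abdominal aorta, both classes were higher in the injured 48 h flush. Of 23 class I members, 16 were called higher and 0 lower (edgeR; at an unadjusted p under 0.05, 17 and 0, and by DESeq2 17 and 0), and of 9 class II members 6 and 0, where 22% of all tested genes were called higher and 13.5% lower. The medians were 1.83 for class I, or 1.53 with genes at 0 in the wall held at their lower bound, and 2.26 for class II, against 0.15 over all genes. All 22 calls had the same sign in each of the 3 batches. The calls were made on these same libraries, so the shared sign is no separate support. For H2-M1 and H2-Eb2, at 0 in all 3 wall samples, a lower value in the flush was not possible. The sums of endothelial and smooth muscle markers given above separate flush and wall as well.

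H2-K1 had 632, 761.8 and 1143 CPM (lowest, median and highest) in the injured 48 h flushes and 258, 189 and 227 CPM in the 3 wall samples, a log2 fold change of 1.83 ± 0.20 (adjusted p = 6.44e-08). H2-D1 had 308, 230 and 248 CPM in the wall (1.89 ± 0.17, adjusted p = 1.78e-09), and B2m had 1960, 1831 and 1471 CPM (0.91 ± 0.23, adjusted p = 0.00252). None of these 3 overlapped between flush and wall, and the share of all tested genes without overlap was not counted. The ratio of B2m to H2-K1 within a library ran from 3.55 to 5.67 in the injured 48 h flushes and from 6.48 to 9.70 in the wall.

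The inducible proteasome subunits were called higher in the flush: Psmb8 by 2.23 ± 0.22, Psmb9 by 1.96 ± 0.32 and Psmb10 by 1.19 ± 0.36 on the log2 scale (adjusted p = 1.27e-08, 2.41e-05 and 0.0107). Tapbp was higher by 0.98 ± 0.14 (adjusted p = 2.47e-06) and Tap1 by 2.10 ± 0.77 (adjusted p = 0.0339). The Tap1 call was kept in 7 of 12 cases when single libraries were left out and in none without a wall sample, and thinned to the smallest library its log2 fold change was 1.01 (adjusted p = 0.364). Tap2 and Nlrc5 were not called (adjusted p = 0.526 and 0.0913).

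Among the nonclassical chains, H2-Q7, H2-Q6 and H2-Q4 were higher by 2.73, 2.47 and 1.53, and H2-M3 by 1.38 (adjusted p = 2.64e-05, 1.19e-05, 0.00037 and 2.1e-05). H2-T23, the Qa-1 chain that shows leader peptides to natural killer cells, was higher by 0.99 (adjusted p = 0.0191) and H2-T24 by 0.78 (0.0459). Without single libraries the H2-T24 call was kept in 1 of 12 cases, the H2-T23 call was lost without the wall sample of mouse E2A (adjusted p = 0.139), and the Psmb10 call without that of E1A or E2A (0.0853 and 0.055). H2-M1 was at 0 in the wall and at least 16.5-fold higher in the flush, and H2-M2 was higher by 3.64 (adjusted p = 0.00509). With the mouse as a block the calls of Psmb10, H2-T23, H2-T24, H2-Ab1, H2-Eb2 and H2-Ob were lost (adjusted p = 0.0599, 0.0712, 0.119, 0.0574, 0.0616 and 0.196).

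Cd74 had 149, 130 and 51.4 CPM in the 3 wall samples, all below the lowest injured 48 h flush at 252 CPM, and its log2 fold change was 2.26 ± 0.65 (adjusted p = 0.00814). H2-Aa, H2-Ab1 and H2-Eb1 were higher in the flush by 2.18, 2.36 and 2.21 (adjusted p = 0.00569, 0.00958 and 0.00869). Without the wall sample of mouse E3A, which held the lowest level of each, Cd74, H2-Ab1 and H2-Eb1 were not called (adjusted p = 0.0634, 0.0635 and 0.063). H2-Eb2 was at 0 in all 3 wall samples and at least 18.9-fold higher in the flush, and H2-Ob was higher by 3.58 (adjusted p = 0.0463), a call kept in 4 of 12 cases when single libraries were left out.

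In the wall, all 3 samples held reads of Ciita, at 1.38, 1.74 and 1.13 CPM. The injured 48 h flush did not differ from it past the threshold (log2 fold change 3.24 ± 1.65, adjusted p = 0.142). The sum of macrophage markers ran from 778 to 904 CPM in the wall, inside the range of 721 to 5776 CPM in the injured 48 h flushes. B cell sums ran from 19.96 to 92.4 CPM in the injured 48 h flushes and from 5.49 to 7.14 CPM in the wall. Their part in the flush against wall differences was not tested.

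In the uninjured flush most class I members were higher than in the wall, while few class II members were called. Of 23 class I members, 16 were called higher and 0 lower in the uninjured flush (edgeR; at an unadjusted p under 0.05, 18 and 0, and by DESeq2 18 and 0), where 25.6% of all tested genes were called higher and 24.5% lower. H2-K1 was higher by 2.25 ± 0.21, H2-D1 by 1.90 ± 0.17, Psmb8 by 1.89 ± 0.22 and B2m by 0.71 ± 0.22 (adjusted p = 2.32e-09, 1.17e-09, 1.16e-07 and 0.0109), and the B2m call was lost without the wall sample of mouse E3A (adjusted p = 0.075). This pair differs in segment as well as fraction, and in injury as far as the wall came from the wounded abdominal segment. Their parts cannot be told apart. The median was 1.89, against -0.17 over all genes. Tapbp, Psmb9, Psmb10, H2-Q4, H2-Q6, H2-Q7, H2-T24, H2-M2 and H2-M3 were higher by 1.11, 1.81, 1.39, 2.09, 2.79, 2.57, 0.94, 5.97 and 1.82 on the log2 scale. H2-M1, H2-M10.4 and H2-M10.6, all at 0 in the wall, were at least 58.4-fold, 20.6-fold and 14.7-fold higher. For these genes a lower value in the uninjured flush was not possible.

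Of 9 class II members, 1 was called higher and 1 lower. H2-Eb2 was at least 50.04-fold higher in the uninjured flush, where all 9 libraries held reads (adjusted p = 0.00284). Ciita, at 0 in the uninjured flush, was at least 12.7-fold lower (adjusted p = 0.0128). With H2-Eb2 at 0 in the wall and Ciita at 0 in the uninjured flush, the opposite direction was not possible for either. Cd74, H2-Aa, H2-Ab1 and H2-Eb1 had log2 fold changes of 0.22 ± 0.58, 0.38 ± 0.55, 0.26 ± 0.62 and -0.05 ± 0.57 (adjusted p = 0.77, 0.571, 0.746 and 0.944). H2-DMa had a log2 fold change of -2.05 ± 1.09 (adjusted p = 0.12), and was called lower with the mouse as a block, at -3.87 (adjusted p = 0.0218), and without the uninjured library of mouse E1B, at -3.22 (adjusted p = 0.0127). The blocked fit also lost H2-T24 and H2-M10.6 (adjusted p = 0.0522 and 0.237), and H2-M10.4 was too low to test in it.

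Set against each other per kilobase of exon, the light chain was the most abundant member in all 4 groups. B2m averaged 3840 CPM per kilobase in the injured 48 h flushes, 5960 at 3 h, 3340 in the uninjured flushes and 2040 in the wall. H2-D1 followed with 375, 558, 379 and 101 and H2-K1 with 273, 462, 364 and 76.5. Cd74 had 316, 159, 76.7 and 65.6, which put it above H2-K1 in the injured 48 h flushes and below it in the other 3 groups. H2-Ab1 was at 68.2, 28.1, 16.1 and 13.3, and Ciita at 1.42, 0.217, 0 and 0.148. These are group means without a test between genes.

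Of the members too low to test, H2-T3 had 0 counts in all 26 libraries, H2-M10.1 had 2 counts, in 1 injured 48 h flush, and H2-Q2 had 2 counts in the 3 h flushes and 1 in the wall. H2-Q10, a secreted chain made mainly by liver, had 86 counts over the injured 48 h flushes, 421 at 3 h, 128 in a single one of the 9 uninjured flushes and 22 in the wall, and was not called in any of the 5 comparisons. H2-T22, a ligand of some gamma delta T cells, was not called either, and 53.5% of its 50-base stretches occur in other genes. H2-Ke6 averaged 45.8 ± 5.87 CPM in the injured 48 h flushes, 48.2 ± 12.7 at 3 h, 40.1 ± 12.2 in the uninjured flushes and 44.1 ± 1.39 in the wall, and was not called in any comparison. Of its 50-base stretches, 70.5% also occur in Gm20427.

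Counts of the other lists at 48 h are to be read against the 24.6% of all tested genes called higher and the 18% called lower. The class II pathway needs proteases, and 4 of 10 tested genes of that list were called higher in the injured 48 h flush than in the uninjured flush, with 0 lower. Ctss, the cathepsin that trims the invariant chain, averaged 285 ± 175 CPM against 25.6 ± 12.6 CPM (SD, n = 9 each; log2 fold change 3.50 ± 0.41, adjusted p = 3.71e-07). The thiol reductase Ifi30 was higher by 2.46 ± 0.24, the legumain gene Lgmn by 1.48 ± 0.20 and cathepsin B, Ctsb, by 1.03 ± 0.19 (adjusted p = 2.28e-08, 3.57e-06 and 0.000127). At 3 h, 2 of the 10 were called higher, where 16.1% of all tested genes were, and Ctss was not called (adjusted p = 0.0806).

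Of 16 genes that supply and fold class I peptides and chains, 8 were called higher and 1 lower at 48 h. Lap3, an aminopeptidase, was higher by 1.17 ± 0.16 and the chaperones Hspa5 and Canx by 0.65 ± 0.10 and 0.53 ± 0.09 (adjusted p = 2.84e-06, 1.48e-05 and 5.9e-05). Erap1, which trims peptides to class I length, fell by 0.51 (SE 0.09, adjusted p = 5.57e-05). Of the constitutive proteasome subunits that Psmb8, Psmb9 and Psmb10 replace, Psmb7 was higher by 0.70 ± 0.18 (adjusted p = 0.00278), while Psmb5 and Psmb6 had adjusted p of 0.479 and 0.202.

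Of 13 tested genes for transcription of MHC genes and the interferon gamma signal, 3 were called higher and 2 lower at 48 h. Ifngr2, a chain of the interferon gamma receptor, was higher by 1.90 ± 0.33 and the kinase gene Jak1 by 0.39 ± 0.09, while Creb1 and Irf2 fell by 0.31 and 0.35 (adjusted p = 6.42e-05, 0.000795, 0.00153 and 0.00415). Rfx5, a subunit of the X box factor, and Irf1, an interferon-induced factor, were not called (adjusted p = 0.756 and 0.302). Ifng, the gene of interferon gamma itself, was too low to test, with reads in 3 of 9 injured 48 h flushes and in 2 of 9 uninjured flushes.

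Of 7 tested costimulation genes, 1 was called higher and 2 lower. The ICOS ligand gene Icosl fell by 1.09 (SE 0.32, adjusted p = 0.00822) and Cd86 by 1.03 (SE 0.36, adjusted p = 0.0255), and Cd83, a marker of activated dendritic cells, was higher by 3.16 ± 1.06 (adjusted p = 0.0192), with 8 of 9 uninjured libraries at 0. The Cd86 call was lost with the mouse as a block (adjusted p = 0.0571) and without the uninjured library of mouse E1B (0.0733) or E3C (0.0518). Of 7 tested class I-like genes outside the H2 region, 2 were called higher and 1 lower: Procr, the endothelial protein C receptor, by 1.40 ± 0.27, and Ulbp1, a ligand of the NKG2D receptor, by 3.89 ± 0.78 (adjusted p = 0.000178 and 0.000324), and Mr1, which presents vitamin B metabolites, at -0.33 ± 0.12 (adjusted p = 0.0299, over the threshold in 9 of 18 fits without single libraries).

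At 3 h against the uninjured flush, 16.1% of all tested genes were called higher and 11.1% lower. Of the lists, 6 of the 16 class I supply genes and 3 of the 13 transcription and signal genes were called higher. Of the 7 costimulation genes and the 7 class I-like genes 0 were called higher, and 0 of any list were called lower. Between the injured 48 h flush and the wall, 22% of all tested genes were called higher and 13.5% lower. Of 16 class I supply genes 7 were called higher and 0 lower there, and of 10 class II proteases 3 and 1. Of 7 class I-like genes 4 were called higher and 1 lower, of 13 transcription and signal genes 3 and 1, and of 7 costimulation genes 2 and 0.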

How the data were processed

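RNA-seq was made from 26 libraries of 4 groups with a low-input kit (NuGEN Ovation Ultralow). The authors deposited raw read counts per gene symbol in 1 table; HISAT2 2.0.3, HTSeq, DESeq2 1.14.1 and the GRCm38 build are named, without roles, per the submitters' processing notes. The gene annotation is not given in the sources used here, nor whether strand was used, and no molecular identifiers are described, so floors cover counting error only.

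Counts were tested with edgeR 4.0.16 (quasi-likelihood, TMM, filterByExpr by group, all 26 libraries in 1 fit, R 4.3.3) over 13884 genes with Benjamini-Hochberg adjustment at 0.05, after a check on simulated counts. CPM were TMM-scaled, ± is SD for levels and SE for log2 fold changes. Overlap between groups was read gene by gene, and the share of all tested genes without overlap was not counted. A group at 0 was given a floor of 3 counts over the group. The column headers mark the 3 h libraries as 0 h, and the labels' 3 h was used. Mouse labels give separate animals per library within a group.

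Alternatives were DESeq2 1.42.0, its size factors in edgeR, no low-count filter, only the 2 groups compared, batch as a covariate, each batch alone or left out, thinning to the smallest library, single libraries left out, and the mouse as a block. The mouse labels pair the flushes of the injured 48 h and uninjured groups: over 9 pairs the correlation of same-mouse deviations was -0.127 to 0.207 (median -0.0123), against a median of -0.0173 for other pairs.

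Members and gene lists were chosen with earlier results of these data known, and promoter motifs after the promoters were read. Named were the main class I and class II genes whatever they showed, other members past the threshold in any comparison, and up to 4 genes of each other list with the smallest p, plus Psmb5, Psmb6, Psmb7, Rfx5 and Irf1. Ifng, H2-M1 at 48 h, H2-Q10, H2-T22 and the members too low to test were named after their values were seen. Listed genes without a row in the table were not analysed here. Shared 50-base stretches were counted over GENCODE M21 transcripts.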

Additional observations from a re-analysis of the deposited data

Results flagged for a closer look

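In 10 of 87 groups of 5 or 9 libraries tested, 1 library lay far from the others by Dixon's test, where chance gives about 1 in 20. In the uninjured group, the library of mouse E1B held H2-K1 at 1790 CPM, against 849.4 to 1103 CPM in the other 8, and H2-DMa at 3.256 CPM, against 0 to 0.8352 CPM. The uninjured library of mouse E1A held Psmb10 at 7.309 CPM, against 16.26 to 24.42 CPM.

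Among the injured 3 h flushes, the library of mouse C1A held Tap1 at 0 CPM, against 21.89 to 39.81 CPM, and Nlrc5 at 16.08 CPM, against 24.54 to 29.08 CPM. That of mouse C2C held Ciita at 10.34 CPM, where the other 4 were at 0. Among the injured 48 h flushes, the library of mouse E3B held Ciita at 0 CPM, against 5.609 to 30.73 CPM, and Tap2 at 0.4114 CPM, against 6.445 to 16.13 CPM. That of mouse E2A held H2-Q4 at 10.85 CPM, against 27.36 to 50.25 CPM, and H2-Q6 at 29.7 CPM, against 67.47 to 125.4 CPM.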

How the results depend on the processing

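Counts here are members of both classes called at 0.05, out of 33 tested. For the injured 48 h over the uninjured flush, 6 were higher, and 3, 1 and 2 within batches 1, 2 and 3. For the 6 lower, the count was 3 after thinning, 1, 0 and 0 within batches, and 3, 3 and 2 without batch 1, 2 and 3. For the injured 3 h over the uninjured flush, the 4 higher became 7 with batch as a covariate, 0 and 2 within batches 1 and 2, and 10, 2 and 1 without batch 1, 2 and 3. The 1 lower became 0 without a low-count filter, with only the 2 groups compared, with the batch covariate, after thinning, within each batch and without each batch. For 48 h over 3 h, the 0 higher became 1 by DESeq2, 2 with only the 2 groups compared and 1 without batch 2, and the 7 lower became 0, 3 and 0 within batches, 0 without batch 2 and 1 without batch 3. For the injured 48 h flush over the wall, the 22 higher became 7, 8 and 6 within batches, 14 without batch 2 and 11 without batch 3. For the uninjured flush over the wall, the 17 higher became 8, 9 and 9 within batches, and the 1 lower became 0 with only the 2 groups compared, 2 with the mouse as a replicate block and 0, 0 and 0 within batches. Batches alone hold fewer libraries; the cause of the other moves was not tested.

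With single libraries left out, the counts higher and lower ran from 6 to 10 and 3 to 7 (injured 48 h over uninjured), 3 to 10 and 0 to 1 (injured 3 h over uninjured), 0 to 3 and 6 to 8 (48 h over 3 h), 16 to 21 and 0 to 0 (injured 48 h over wall), and 13 to 18 and 1 to 2 (uninjured over wall). Of 1948 called single values in those fits 1818 kept their call, 130 lost it and 0 reversed. Under the other settings, 1316 of 1795 kept it, 478 lost it and 1 reversed: Jak2 between 48 h and 3 h, at 0.03 within batch 2 (adjusted p = 0.986). With the mouse as a block, H2-M10.4 was too low to test, and no call of a tested member changed beyond those given above. Shallow flush libraries limit members of a few counts, such as H2-M10.4, H2-M10.6 and Ciita at 3 h.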
